A study of Mus musculus with 8 samples.

Results

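Macroautophagy encloses cytoplasm in a double membrane, the autophagosome, and hands it to the lysosome for breakdown. The ULK1 kinase complex starts the process, the VPS34 lipid kinase complex nucleates the membrane, and transfer proteins and ATG9A supply it with lipid. Ubiquitin-like conjugation enzymes then attach proteins of the ATG8 family (LC3 and GABARAP) to the growing membrane, where cargo receptors dock. In macrophages the same machinery takes up intracellular bacteria and damaged mitochondria. Here 39 named genes of this machinery were followed through the 42454 genes of a count table from RAW264.7 cells. They were 5 initiation genes, 6 nucleation genes, 5 genes of lipid transfer and membrane supply, 11 conjugation genes, 5 ATG8 family genes, 5 cargo receptors and 2 transcription factors.

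RAW264.7 is a macrophage-like cell line that grew from a mouse tumour induced by Abelson leukaemia virus. Polyadenylated RNA was sequenced in 8 libraries, 2 per label. The label mock stands for the solvent DMSO, and TubB for Tubuloside B without a stimulus. The label LPS_IFNg stands for 24 h with lipopolysaccharide (10 ng/ml) and interferon-gamma (20 ng/ml), and LPS_IFNg_TubB for the same stimulus combined with Tubuloside B. No time was given for mock and TubB. Tubuloside B is a phenylethanoid glycoside, for which the labels gave no dose. Lipopolysaccharide and interferon-gamma together drive macrophages into an inflammatory state. The series asked how the compound changes inflammatory expression in these cells. The labels do not say whether replicates were separate cultures. Every p-value therefore rests on the spread between these libraries alone, which may be technical. Messenger RNA was measured, and neither autophagic flux nor protein was.

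The markers of the stimulus went against the labels, so groups are named below by their label only. Nos2, the inducible nitric oxide synthase, had 166 ± 14.6 CPM (read counts scaled to a common library size; SD, n = 2) in the libraries labelled mock and 183 ± 23.2 in those labelled LPS_IFNg. Its level was 6363 ± 850.1 CPM in the libraries labelled TubB and 6792 ± 900.4 in those labelled LPS_IFNg_TubB. The summed CPM of 7 stimulus-response genes (Nos2, Ptgs2, Il6, Il1b, Irf1, Cxcl10 and Gbp2) lay at 206 to 229.7 in mock, 218 to 251 in LPS_IFNg, 9191 to 11477 in TubB and 9752 to 11806 in LPS_IFNg_TubB. Each result below that sets TubB against mock or LPS_IFNg_TubB against LPS_IFNg moves with this difference, and the part of the compound and of the stimulus in it cannot be told apart. Whether labels of libraries were exchanged was not tested. All 10 macrophage markers passed the count filter, with sums of 8166 to 8470 CPM in the libraries labelled mock and LPS_IFNg and 9533 to 10133 in the others. Lyz2, which had the highest level of the list, was not called, while Csf1r was lower (log2 fold changes of -1.20 ± 0.09 and -1.27 ± 0.09 in the compound comparisons) and Adgre1 (2.71 ± 0.15 and 2.81 ± 0.15) and Fcgr3 (2.64 ± 0.13 and 2.80 ± 0.13) were higher. All 4 T cell markers had 0 counts, and no B cell, fibroblast, epithelial or endothelial marker passed the filter. Of 6 neutrophil genes, S100a9, Ly6g and Mpo were at 0, and the list summed to 6.46 to 7.54 CPM in mock and LPS_IFNg and 37.6 to 57.1 CPM in TubB and LPS_IFNg_TubB. The 2 that passed the filter were called higher in both compound comparisons: S100a8 by 2.91 ± 0.23 and 3.07 ± 0.25, and Csf3r by 1.56 ± 0.42 and 1.43 ± 0.43. Of 5 dendritic cell genes, Flt3 and Cd209a were at 0, and the sums were 40.1 to 54.5 CPM over all 8 libraries. Within that list Xcr1 was called higher in both compound comparisons, with 0 to 5 counts per library in mock and LPS_IFNg and 56 to 98 in the others, and Itgax lower, by -0.39 ± 0.13 and -0.34 ± 0.14. Library totals ran from 4767894 to 8413834 counts.

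Promoter sequence is shown for 3 members: Sqstm1, which had the highest level, Atg13, which had the largest log2 fold change in TubB against mock, and Atg3, which was called in neither compound comparison in the reported fit. Each run holds 200 bases, from 250 to 51 bases before the RefSeq transcript start (GRCm38.p6), written 5′ to 3′ on the gene's strand. Capitals mark matches, on either strand, to 1 of 4 searched motifs: the E-box CACGTG, the longer CLEAR element of lysosomal genes (an E-box with GT before it and AC after it), the antioxidant response core TGACNNNGC and the interferon-stimulated element (GAAA, any 2 bases, GAAA). These lie at chr11:50210871-50211070 (minus strand) for Sqstm1, chr2:91710643-91710842 (minus strand) for Atg13 and chr16:45158579-45158778 (plus strand) for Atg3.
Sqstm1: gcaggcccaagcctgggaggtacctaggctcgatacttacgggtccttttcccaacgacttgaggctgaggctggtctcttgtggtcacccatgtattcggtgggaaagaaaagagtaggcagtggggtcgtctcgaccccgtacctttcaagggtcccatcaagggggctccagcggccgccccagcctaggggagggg
Atg13: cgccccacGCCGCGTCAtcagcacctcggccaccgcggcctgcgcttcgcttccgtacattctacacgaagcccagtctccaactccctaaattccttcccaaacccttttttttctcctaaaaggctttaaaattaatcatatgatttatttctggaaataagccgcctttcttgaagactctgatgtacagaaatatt
Atg3: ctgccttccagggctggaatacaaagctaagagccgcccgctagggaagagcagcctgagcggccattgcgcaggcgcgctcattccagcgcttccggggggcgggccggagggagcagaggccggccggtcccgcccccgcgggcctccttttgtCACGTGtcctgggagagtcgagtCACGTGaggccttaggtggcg

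The Sqstm1 window held none of the 4 motifs. The Atg13 window held 1 antioxidant core, on the strand opposite to the gene, and the Atg3 window 2 E-boxes, 94 and 71 bases before the start. Over the 250 bases before the start, the RefSeq table had 40 windows for 33 of the 39 members. Among these members the E-box was present in 3 (Atg3, Atg5 and Atg7) and the antioxidant core in 3 (Atg13, Tax1bp1 and Ulk2). Neither the longer lysosomal-gene element nor the interferon-stimulated element occurred in a member's window. Of all 32851 windows in the table, 6.02% held the E-box, 10.2% the antioxidant core, 0.24% the lysosomal-gene element and 2.98% the interferon-stimulated element. Among windows of the genes tested here, 8.56% held the E-box and 11.7% the antioxidant core, so the members' counts were near the background. A match is a stretch of letters and not a shown binding site.

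Of the 39 members, 35 passed the count filter, among 11081 genes that did. Optn, the receptor optineurin, had 0 counts in all 8 libraries, which allows up to 0.0614 CPM over the 48862871 counts of the series (3 counts, counting error only). Gabarap also had 0 counts, Atg4a 3 counts, all in 1 library labelled TubB, and Atg2a 18. Each of these last 3 genes has a second, numbered entry in the annotation, so that reads mapping to both places would not be counted, and their low counts say little of the level. Optn has no such entry, but its limit does not cover reads lost in mapping or counting. Vamp8, one of the other pathway genes listed below, also had 0 counts in all 8 libraries.

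Levels between genes were compared as CPM per kb of exon. In the libraries labelled mock, Sqstm1 stood first at 269 ± 41.0 CPM per kb (SD, n = 2). Below it came Gabarapl2 at 49.8 ± 3.01, Tax1bp1 at 45.7 ± 1.28, Atg3 at 38.9 ± 3.35 and Map1lc3b at 38.2 ± 1.64 CPM per kb. The first 5 places were thus held by 2 cargo receptors, 2 ATG8 proteins and the E2-like enzyme that loads the ATG8 family. At the other end were Wipi1 at 1.14 ± 0.413, Atg10 at 1.24 ± 0.593, Atg4c at 1.65 ± 0.274 and Map1lc3a at 2.44 ± 0.711 CPM per kb. Of the 34 pairs of neighbours in this order, 20 overlapped between their 2 mock libraries, Atg3 and Map1lc3b among them. In the libraries labelled TubB, Sqstm1 had 725 ± 77.7 CPM per kb, Tax1bp1 85.8 ± 9.89, Atg13 81.2 ± 16.7, Map1lc3b 60.1 ± 4.80 and Gabarapl2 58.6 ± 6.86. The order of the means thus had Atg13 and Map1lc3b above Gabarapl2 there, whereas in mock both were below it. In TubB, however, Map1lc3b and Gabarapl2 differed by less than either SD, so their order there is not settled.

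**Figure D1:**
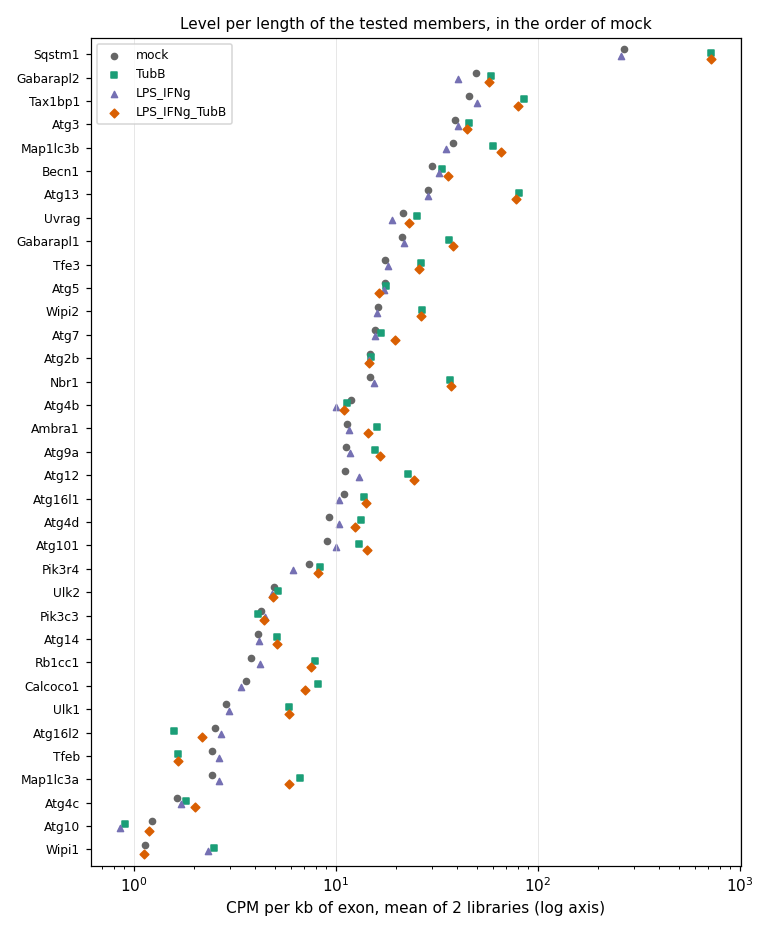
Level per exon length of the 35 tested members (mean of 2 libraries, CPM per kb, log axis) in each labelled group, in the order of the mock libraries. Sqstm1 stands alone at the top in all 4 groups, with 269 CPM per kb in mock and 725 in TubB, and Wipi1 is lowest in mock at 1.14.

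In the libraries labelled TubB, 19 of the 35 tested members were higher than in those labelled mock, 1 was lower and 15 were not called (edgeR, adjusted p under 0.05). Of all tested genes, 26.3% were called higher and 24.9% lower in this comparison. Libraries did not overlap for 25 members that were higher and 3 that were lower, against 37.6% and 38.6% of all genes. The median log2 fold change was 0.47 over the members and -0.01 over all genes. In the libraries labelled LPS_IFNg_TubB, 21 members were higher than in those labelled LPS_IFNg, 1 was lower and 13 were not called. There the background was 26.2% higher and 25.0% lower, 27 members lay above and 2 below without overlap (38.1% and 37.8% of all genes), and the medians were 0.45 for the members and -0.01 for all genes. The comparisons use different libraries but 1 shared fit. Same-numbered libraries that differ only in the stimulus label were closer than replicates of a group (chi-square of 1.93 to 2.34 against 2.60 to 4.87 per gene). The second comparison is therefore not a separate repetition of the first. In both, 17 of 35 members (48.6%) were higher, against 22.8% of all genes. In this fit no member was called lower in both, the lower member being Atg16l2 in the first comparison and Tfeb in the second. Tfeb was called lower in both with library totals (-0.72 and -0.89), with limma on rlog values (-0.29 and -0.35) and without TubB replicate 2. With library totals Atg16l2 (-0.87 and -0.54) and Atg2b (-0.21 and -0.22) were also called lower in both. In RNA from whole cultures, fewer cells with a transcript and less of it per cell cannot be told apart. The members called in neither were Ulk2, Becn1, Pik3c3, Atg14, Atg2b, Atg3, Atg4b, Atg4c, Atg5 and Atg10.

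The sign of smaller differences rests on the scaling of the libraries. TMM, the scaling used here, gave factors of 1.07 to 1.08 to the libraries labelled mock and LPS_IFNg and 0.909 to 0.948 to the other 4. With library totals alone, 14 members were higher and 3 lower in TubB than in mock. In LPS_IFNg_TubB against LPS_IFNg, 13 were higher and 4 lower. Of all genes, 18.1% were then called higher and 37.9% lower in the first comparison, and 18.0% and 37.3% in the second. That scaling moved the median of all genes to -0.23 and -0.22 and the share of higher among all called genes from 51.4% to 32.4% and from 51.2% to 32.6%. The 11 members Sqstm1, Nbr1, Calcoco1, Tax1bp1, Map1lc3b, Gabarapl1, Atg13, Rb1cc1, Wipi2, Atg12 and Tfe3 were called higher in both comparisons under each of 17 alternatives, library totals included. Calls of the other 6 (Ambra1, Atg101, Atg16l1, Atg9a, Map1lc3a and Ulk1) were lost under at least 1 of them in at least 1 comparison.

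**Figure D2:**
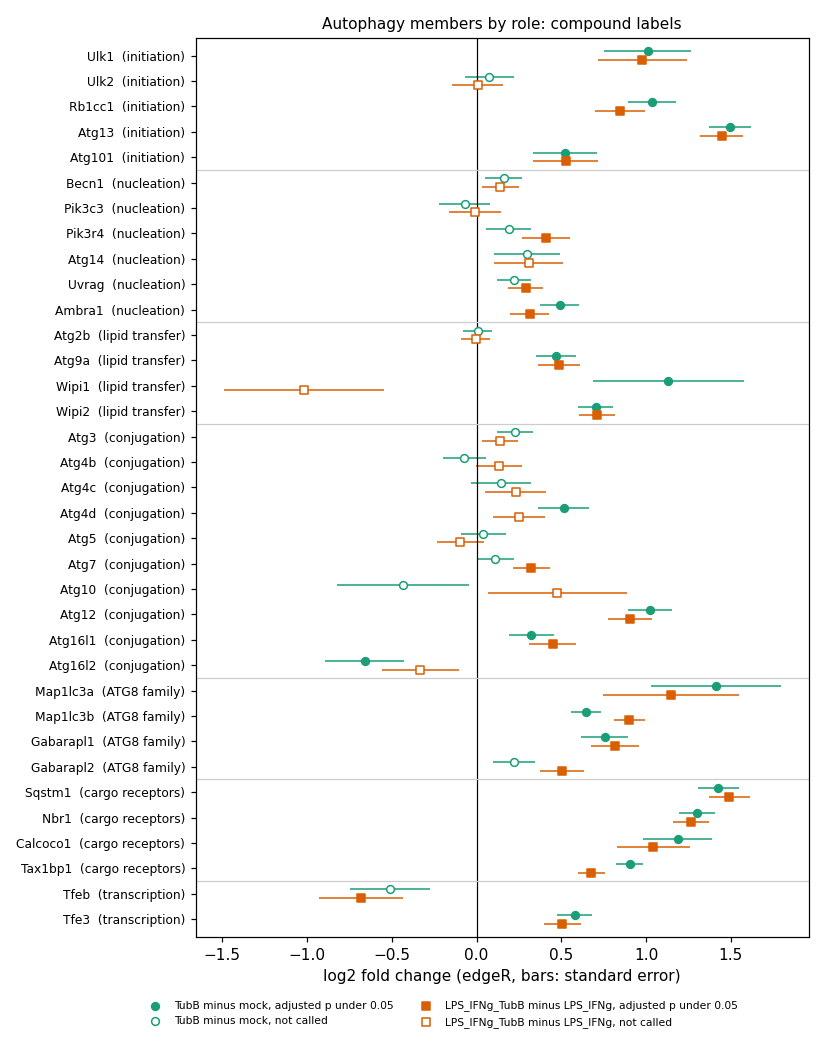
Log2 fold change with its standard error (edgeR) of the 35 tested members, ordered by role (filled symbols, called; open symbols, not called), in TubB against mock and in LPS_IFNg_TubB against LPS_IFNg. Values run from -0.66 to 1.49 in the first and from -1.02 to 1.49 in the second, with cargo receptors and most initiation genes to the right and most conjugation enzymes near 0.

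All 4 tested cargo receptors were higher in both comparisons, with median log2 fold changes of 1.24 and 1.15. Of all genes, 22.8% were higher in both. Sqstm1 encodes p62, which binds ubiquitin and LC3 and also holds KEAP1, the inhibitor of NRF2 (chr11:50200152-50210820 in GRCm38.p6, exons and introns). It had 488 and 606 CPM in the mock libraries, 1582 and 1359 in TubB, 493 and 554 in LPS_IFNg and 1581 and 1361 in LPS_IFNg_TubB. The libraries labelled TubB and LPS_IFNg_TubB lay above all 4 others, and mock and LPS_IFNg overlapped. The log2 fold change was 1.43 ± 0.12 (SE; adjusted p = 2.91e-06) for TubB against mock and 1.49 ± 0.12 (adjusted p = 2.16e-06) for LPS_IFNg_TubB against LPS_IFNg.

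Nbr1, a receptor built like p62 and found with it in ubiquitin-rich bodies, had 71.0 and 81.8 CPM in mock, 204 and 174 in TubB, 83.8 and 76.1 in LPS_IFNg and 212 and 174 in LPS_IFNg_TubB. Its TubB and LPS_IFNg_TubB libraries lay above all 4 others. The log2 fold changes were 1.30 ± 0.11 (adjusted p = 2.64e-10) and 1.26 ± 0.11 (adjusted p = 5.75e-10). Tax1bp1, a ubiquitin-binding receptor that also restrains NF-kappaB signalling together with A20, had 169.7 and 177 CPM in mock and 351 and 298 in TubB. In LPS_IFNg it had 185 and 194 and in LPS_IFNg_TubB 312 and 295 CPM. Both groups labelled with the compound were above the others without overlap, by 0.90 ± 0.08 (adjusted p = 1.26e-10) and 0.68 ± 0.08 (adjusted p = 4.12e-08) on the log2 scale. Calcoco1, a receptor for parts of the endoplasmic reticulum, had the lowest level per exon length of these receptors. It had 9.07 and 11.3 CPM in mock, 23.9 and 22.5 in TubB, 10.2 and 9.0 in LPS_IFNg and 21.3 and 18.5 in LPS_IFNg_TubB. No library overlapped between the compared groups, and the log2 fold changes were 1.19 ± 0.20 (adjusted p = 1.38e-05) and 1.04 ± 0.22 (adjusted p = 1.75e-04).

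Among the 5 initiation genes, 4 were higher in both comparisons and Ulk2 in neither, with medians of 1.01 and 0.85. The share of all genes higher in both was 22.8%. Atg13, the subunit that links the kinase to its scaffold, had the largest log2 fold change of all members in TubB against mock. Its level was 105 and 113 CPM in mock, 352 and 263 in TubB, 107 and 111 in LPS_IFNg and 320.2 and 275 in LPS_IFNg_TubB. The lowest library of the TubB and LPS_IFNg_TubB groups was above the highest of the others. Log2 fold changes were 1.49 ± 0.12 (adjusted p = 4.20e-07) and 1.45 ± 0.13 (adjusted p = 6.60e-07).

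Rb1cc1 encodes FIP200, the scaffold of the complex. It had 24.0 and 33.6 CPM in mock, 63.2 and 55.5 in TubB, 30.8 and 32.8 in LPS_IFNg and 58.8 and 55.7 in LPS_IFNg_TubB, with no overlap in either comparison. The log2 fold changes were 1.04 ± 0.14 (adjusted p = 4.45e-07) and 0.85 ± 0.14 (adjusted p = 1.46e-05). For the kinase gene Ulk1 the replicates were further apart: 11.7 and 21.2 CPM in mock, 40.6 and 27.0 in TubB, 15.3 and 18.9 in LPS_IFNg and 36.0 and 31.6 in LPS_IFNg_TubB. The groups still did not overlap, and Ulk1 was higher by 1.01 ± 0.26 (adjusted p = 0.00501) and 0.98 ± 0.26 (adjusted p = 0.00719) on the log2 scale. The second call was lost without LPS_IFNg replicate 1 or without LPS_IFNg_TubB replicate 1. Its paralogue Ulk2 had 28.6 and 32.5 CPM in mock and 31.4 and 32.8 in TubB, and 30.5 and 29.4 in LPS_IFNg and 29.8 and 30.2 in LPS_IFNg_TubB, so that all 8 libraries lay in 1 narrow band. Ulk2 differed by 0.08 ± 0.14 (adjusted p = 0.687) and 0.01 ± 0.15 (adjusted p = 0.976). Atg101, which stabilises ATG13, had 18.4 and 16 CPM in mock, 26.1 and 23.6 in TubB, 15.5 and 22.6 in LPS_IFNg and 23.9 and 30.4 in LPS_IFNg_TubB. Its log2 fold changes were 0.52 ± 0.19 (adjusted p = 0.0231) and 0.53 ± 0.19 (adjusted p = 0.0234). Both Atg101 calls were lost with library totals, with DESeq2 and without either of 2 libraries (mock replicate 2 and TubB replicate 1, or LPS_IFNg replicate 1 and LPS_IFNg_TubB replicate 2).

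All 4 tested ATG8 family genes had higher means in the libraries labelled with the compound. Of them, 3 and 4 were called higher in the first and second comparison, against 26.3% and 26.2% of all genes. Map1lc3b encodes LC3B, the usual marker protein of autophagosomes. It had 94.9 and 101 CPM in mock, 163 and 145 in TubB, 86.3 and 93.9 in LPS_IFNg and 168 and 168 in LPS_IFNg_TubB. The groups did not overlap, and the log2 fold changes were 0.65 ± 0.09 (adjusted p = 4.12e-07) and 0.90 ± 0.09 (adjusted p = 1.36e-09). Its exons overlap those of Zcchc14 and the library kit did not keep strand. Zcchc14 moved the other way, by -0.76 ± 0.13 (adjusted p = 1.05e-05) and -0.94 ± 0.13 (adjusted p = 7.65e-07).

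Map1lc3a, the LC3A gene, had a level per exon length of 2.44 ± 0.711 CPM per kb in mock, against 38.2 ± 1.64 for Map1lc3b. Its values were 3.07 and 2.02 CPM in mock, 8.35 and 5.65 in TubB, 2.80 and 2.72 in LPS_IFNg and 5.97 and 6.28 in LPS_IFNg_TubB. The compared groups were apart, with log2 fold changes of 1.41 ± 0.38 (adjusted p = 0.00266) and 1.15 ± 0.40 (adjusted p = 0.0171). The second Map1lc3a call was lost without LPS_IFNg replicate 1, LPS_IFNg replicate 2 or LPS_IFNg_TubB replicate 2. Gabarapl1 had 36.1 and 39.4 CPM in mock, 70.3 and 58.4 in TubB, 31.8 and 45.4 in LPS_IFNg and 68.9 and 66.9 in LPS_IFNg_TubB. This GABARAP relative was higher without overlap, by 0.76 ± 0.14 (adjusted p = 5.13e-05) and 0.82 ± 0.14 (adjusted p = 2.56e-05). Gabarapl2, also known as GATE-16, had 46.8 and 50.9 CPM in mock, 62.1 and 52.6 in TubB, 42.3 and 37.2 in LPS_IFNg and 57.9 and 55.2 in LPS_IFNg_TubB. Its libraries did not overlap in either comparison, but only the second difference, 0.50 ± 0.13 (adjusted p = 0.00165), was called, and the first was 0.22 ± 0.12 (adjusted p = 0.135). The second call was lost with library totals, where the value was 0.29, and the first became a call without TubB replicate 2 (0.36, edgeR's adjusted p = 0.0419).

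**Figure D3:**
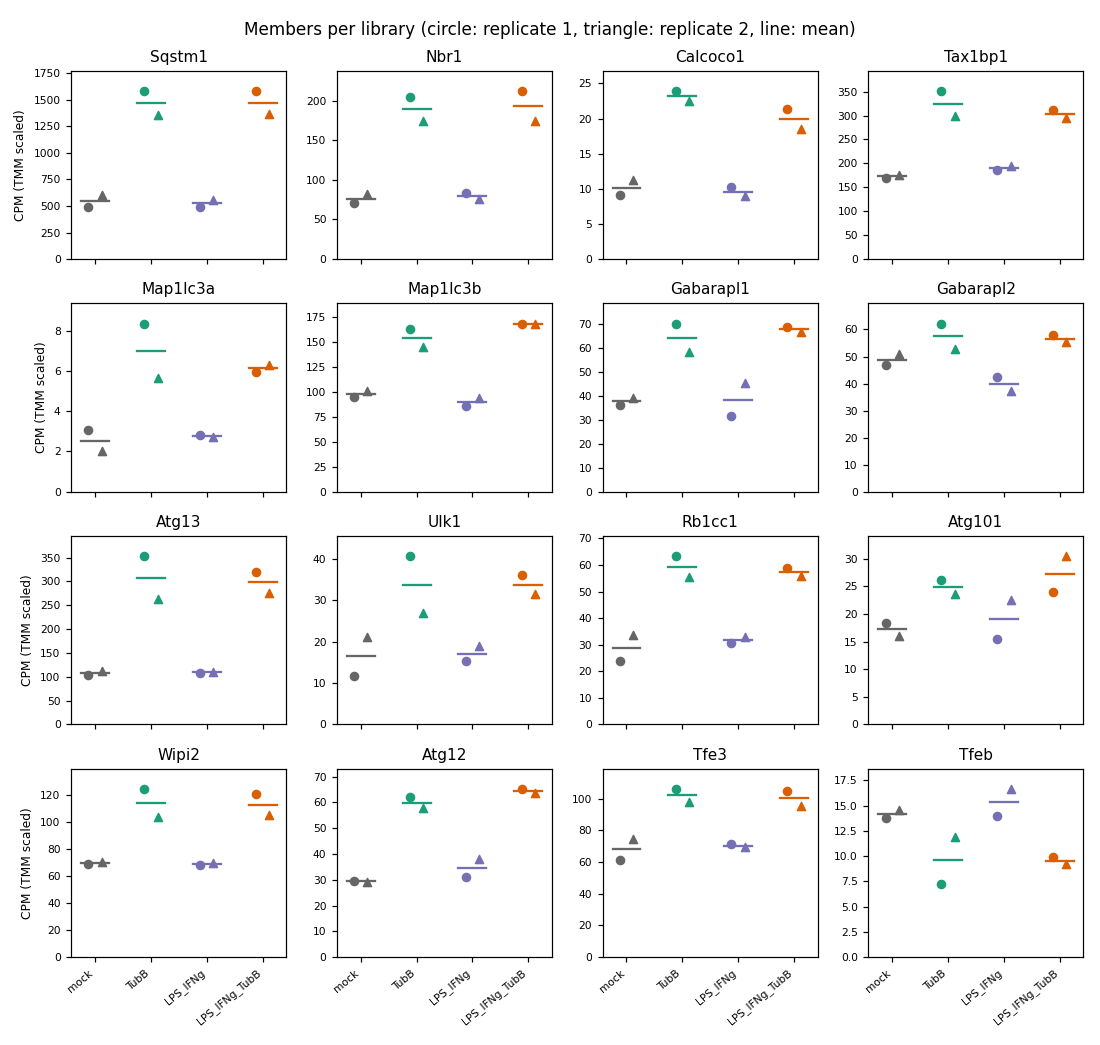
CPM of 16 members in each of the 8 libraries (circle, replicate 1; triangle, replicate 2; line, mean of the group; each axis starts at 0). For Sqstm1, Nbr1, Atg13, Map1lc3b and Atg12 all TubB and LPS_IFNg_TubB libraries lie above all mock and LPS_IFNg libraries, while Tfeb lies below, at 7.25 to 11.9 against 13.8 to 16.6 CPM.

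Of 6 tested genes of VPS34 nucleation, 1 was higher in the first comparison and 3 in the second (26.3% and 26.2% of all genes were), with medians of 0.21 and 0.30. Ambra1, a scaffold that links Beclin 1 to the ULK1 complex, was the one called in both. It had 55.0 and 65.5 CPM in mock, 89.4 and 80.5 in TubB, 57.3 and 66.4 in LPS_IFNg and 73.2 and 80.0 in LPS_IFNg_TubB, with no overlap. Its log2 fold changes were 0.49 ± 0.11 (adjusted p = 6.13e-04) and 0.31 ± 0.12 (adjusted p = 0.0265), and the second call was lost with library totals, with DESeq2 and without LPS_IFNg replicate 1 or LPS_IFNg_TubB replicate 2. Uvrag and Pik3r4, 2 regulatory partners of the lipid kinase, were called in the second comparison only. For Uvrag the values were 74.2 and 75.6 CPM in mock, 89.6 and 85.3 in TubB, 62.1 and 69.1 in LPS_IFNg and 79.7 and 80.6 in LPS_IFNg_TubB, and the log2 fold changes 0.22 ± 0.10 (adjusted p = 0.0683) and 0.29 ± 0.11 (adjusted p = 0.0221). Pik3r4 differed by 0.19 ± 0.13 (adjusted p = 0.240) and 0.41 ± 0.14 (adjusted p = 0.0151). Both second calls were lost with library totals and without LPS_IFNg replicate 1 or LPS_IFNg_TubB replicate 1. In addition, Uvrag lost its call with DESeq2 and without LPS_IFNg_TubB replicate 2, and Pik3r4 without LPS_IFNg replicate 2. The catalytic subunit gene Pik3c3 differed by -0.07 ± 0.15 and -0.01 ± 0.15, Becn1 by 0.16 ± 0.11 and 0.14 ± 0.11, and Atg14 by 0.30 ± 0.20 and 0.31 ± 0.20, none of them called.

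In the group of lipid transfer and membrane supply, Wipi2 and Atg9a were higher in both comparisons, as were 22.8% of all genes. Wipi2, which reads the lipid made by VPS34 and recruits ATG16L1, had 69.1 and 70.0 CPM in mock, 124 and 104 in TubB, 67.8 and 69.3 in LPS_IFNg and 120.1 and 105 in LPS_IFNg_TubB. The compared groups were far apart relative to their replicates, at 0.70 ± 0.10 (adjusted p = 1.42e-06) and 0.71 ± 0.11 (adjusted p = 1.87e-06). Atg9a, the lipid scramblase carried on vesicles, had 50.7 and 48.3 CPM in mock, 71.4 and 66.2 in TubB, 57.3 and 46.4 in LPS_IFNg and 77.6 and 68.2 in LPS_IFNg_TubB. Its log2 fold changes of 0.47 ± 0.12 (adjusted p = 0.00153) and 0.49 ± 0.12 (adjusted p = 0.00134) both lost their calls with library totals, and the second also without LPS_IFNg replicate 2. The lipid transfer protein gene Atg2b showed 154 and 151 CPM in mock and 152 and 154 in TubB, 146 and 153 in LPS_IFNg and 160.0 and 139 in LPS_IFNg_TubB, and was called in neither comparison. With library totals Atg2b was called lower in both, at -0.21 (edgeR's adjusted p = 0.0333) and -0.22 (adjusted p = 0.0310).

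Wipi1 and Atg4b were the members whose libraries were apart in opposite directions in the compound comparisons. The Atg4b differences were small. Wipi1, a relative of Wipi2, had 1.54 and 2.60 CPM in mock, 4.39 and 4.65 in TubB, 4.61 and 3.91 in LPS_IFNg and 1.61 and 2.48 in LPS_IFNg_TubB, from only 7 to 37 counts per library. The TubB libraries were above the mock libraries, and the LPS_IFNg_TubB libraries were below the LPS_IFNg libraries. The log2 fold change was 1.13 ± 0.44 (adjusted p = 0.0337) in the first and -1.02 ± 0.47 (adjusted p = 0.0731) in the second comparison. The test of the difference between them gave -2.15 ± 0.65 with an unadjusted p of 0.00247, and over all genes edgeR's adjusted p was 0.9999, so the difference was not called. The first call was also lost with library totals, with DESeq2 and without mock replicate 1, TubB replicate 1 or TubB replicate 2. The second became a call with library totals and with limma on rlog values.

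Of 10 tested conjugation enzymes, 3 were higher and 1 lower in the first comparison, where 26.3% and 24.9% of all genes were. In the second, 3 were higher and none lower, against 26.2% and 25.0% of all genes, and the medians were 0.13 and 0.24. Atg12, the ubiquitin-like protein joined to ATG5, had 29.7 and 29.0 CPM in mock, 62.1 and 57.7 in TubB, 30.9 and 37.9 in LPS_IFNg and 65.2 and 63.8 in LPS_IFNg_TubB. Its compared groups did not overlap, and the log2 fold changes were 1.02 ± 0.13 (adjusted p = 1.05e-07) and 0.91 ± 0.13 (adjusted p = 9.42e-07). Atg12 shares exon sequence with Ap3s1, which was also higher, by 0.80 ± 0.10 (adjusted p = 3.89e-08) and 0.85 ± 0.10 (adjusted p = 1.62e-08), and without strand their shared reads cannot be told apart.

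The 2 ATG16L genes differed from each other. Atg16l1, which places the ATG12-ATG5 enzyme on the membrane, had 32.9 and 40.4 CPM in mock, 47.4 and 44.6 in TubB, 36.4 and 32.8 in LPS_IFNg and 45.5 and 48.7 in LPS_IFNg_TubB. It was higher by 0.32 ± 0.13 (adjusted p = 0.0442) and 0.45 ± 0.14 (adjusted p = 0.00785). The first Atg16l1 call was lost under 9 of 17 alternatives, among them no count filter, the compared groups alone, DESeq2, library totals and leaving out mock replicate 1, either TubB replicate or either LPS_IFNg replicate. The second was lost with library totals and without LPS_IFNg replicate 2 or LPS_IFNg_TubB replicate 2. Atg16l2, a relative with a less settled role, had 14.4 and 18.3 CPM in mock, 9.66 and 10.8 in TubB, 15.1 and 19.7 in LPS_IFNg and 16.8 and 11.4 in LPS_IFNg_TubB. It was lower in TubB than in mock, with a log2 fold change of -0.66 ± 0.23 (adjusted p = 0.0175), and this call was lost with DESeq2 and without mock replicate 2 or TubB replicate 1. In the second comparison the Atg16l2 libraries overlapped, with -0.33 ± 0.23 (adjusted p = 0.236). With library totals that second value was -0.54 and was called (adjusted p = 0.0483).

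Among the other conjugation genes, the E1-like Atg7 was called in the second comparison only, at 0.11 ± 0.11 (adjusted p = 0.416) and 0.32 ± 0.11 (adjusted p = 0.0153). The protease gene Atg4d was called in the first only, at 0.51 ± 0.15 (adjusted p = 0.00500) and 0.25 ± 0.15 (adjusted p = 0.175). Both single calls were lost with library totals, that of Atg7 also without LPS_IFNg replicate 1 or LPS_IFNg_TubB replicate 1, and that of Atg4d also without mock replicate 1 or TubB replicate 1. Atg4d overlaps the exons of Kri1, which was lower in both, by -0.38 ± 0.12 and -0.41 ± 0.12. The E2-like Atg3 differed by 0.23 ± 0.10 and 0.14 ± 0.11, the ATG8 protease Atg4b by -0.07 ± 0.13 and 0.13 ± 0.14, and Atg5 by 0.04 ± 0.13 and -0.09 ± 0.14, none of them called. Without TubB replicate 2 the first Atg3 difference became a call (0.35, edgeR's adjusted p = 0.0170). Atg4c at 0.14 ± 0.18 and 0.23 ± 0.18 and Atg10 at -0.43 ± 0.39 and 0.48 ± 0.41 were not called either.

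The 2 transcription factors that switch on lysosomal and autophagy genes differed in sign. Tfe3 had 61.5 and 74.7 CPM in mock, 106 and 98.0 in TubB, 71.3 and 69.3 in LPS_IFNg and 105 and 95.3 in LPS_IFNg_TubB. It was higher in both comparisons without overlap, by 0.58 ± 0.11 (adjusted p = 3.23e-05) and 0.51 ± 0.11 (adjusted p = 2.35e-04). Tfeb had 13.8 and 14.6 CPM in mock, 7.25 and 11.9 in TubB, 14 and 16.6 in LPS_IFNg and 9.87 and 9.25 in LPS_IFNg_TubB. Its libraries labelled with the compound lay below the others, by -0.51 ± 0.24 (adjusted p = 0.0719) and -0.68 ± 0.25 (adjusted p = 0.0216), so only the second difference was called. That call was lost with DESeq2 and without LPS_IFNg replicate 2 or either LPS_IFNg_TubB replicate, and the first became a call with library totals, with limma on rlog values and without TubB replicate 2.

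No member was called for the stimulus label in edgeR, in a fit that does not pair libraries. Replicates of a group differed more (chi-square of 2.60 to 4.87 per gene) than same-numbered libraries across the stimulus label (1.93 to 2.34). That 0 members were called does therefore not show that the groups were equal. In LPS_IFNg against mock, 0 of 35 members passed, as did 0.0% of all genes in either direction, and the members' median log2 fold change was 0.04. At an unadjusted p under 0.05, 1 member was higher (Wipi1, 1.04 ± 0.45) and 1 lower (Gabarapl2, -0.30 ± 0.13), with 137 genes higher and 110 lower in all. In LPS_IFNg_TubB against TubB the count was again 0 of 35, with 0.0% of all genes, a median of -0.01 and only Wipi1 under 0.05 unadjusted, at -1.11 ± 0.47. DESeq2 and limma-voom called 0 members in these comparisons too. Sqstm1, Nbr1, Atg13 and Map1lc3b differed between LPS_IFNg and mock by -0.06 ± 0.12, 0.07 ± 0.11, 0.01 ± 0.13 and -0.12 ± 0.09. Between LPS_IFNg_TubB and TubB they differed by 0.00 ± 0.12, 0.03 ± 0.10, -0.04 ± 0.12 and 0.13 ± 0.09 on the log2 scale.

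**Figure D4:**
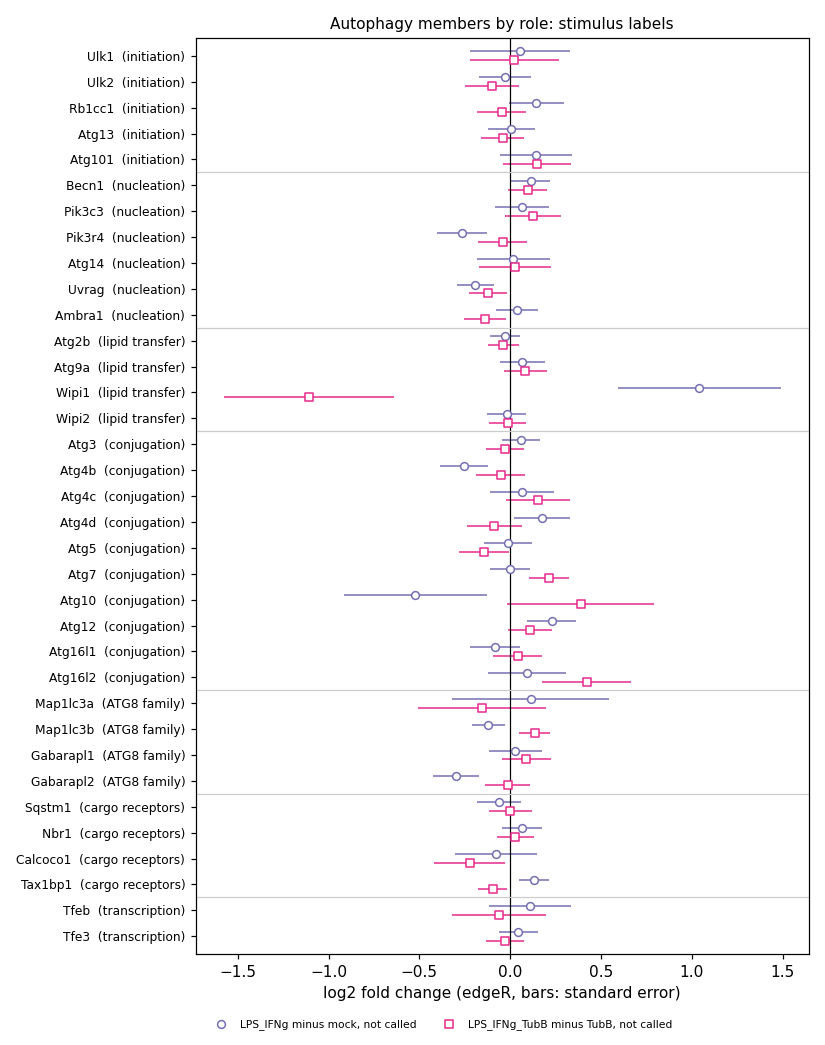
Log2 fold change with its standard error (edgeR) of the same members in LPS_IFNg against mock and in LPS_IFNg_TubB against TubB. Most values lie close to 0 and none was called, and Wipi1 is the farthest out in both, at 1.04 and -1.11.

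The difference between the compound comparisons was called for 0 members and for 0.0% of all genes in edgeR. Unadjusted, Wipi1 alone among members was under 0.05. The members with the next smallest p were Map1lc3b, with 0.25 ± 0.13, and Tax1bp1, with -0.23 ± 0.11 (edgeR's adjusted p = 0.9999 for each). A call in 1 comparison and not in the other, as for Uvrag, Pik3r4, Atg7, Gabarapl2, Tfeb, Atg4d, Atg16l2 and Wipi1, is therefore not shown to be a difference between them.

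Replicates with the label TubB were further apart than those of the other labels, with a chi-square of 4.87 per gene against 2.60 to 3.31 within the other groups. The stimulus-response sum was 11477 CPM in TubB replicate 1 and 9191 in TubB replicate 2. Of the 17 members higher in both comparisons, all 17 were higher in TubB replicate 1 than in TubB replicate 2, with a median ratio of 1.14. For all 2528 genes higher in both, 77.8% were, with a median ratio of 1.09. In LPS_IFNg_TubB, where the stimulus-response sums were 11806 and 9752 CPM, 12 of the 17 members were higher in replicate 1, with a median ratio of 1.06, against 74.0% of all such genes. Without TubB replicate 1, 15 members were called higher than in mock. The part of the stimulus response in the members' values was not tested.

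Beyond these members, 59 other genes of the pathway were listed, of which 55 passed the count filter. In each comparison 29 of them were higher and 5 lower, with medians of 0.23 and 0.33, and 25 were higher and 4 lower in both. Of all genes, 26.3% were higher and 24.9% lower in the first comparison, 26.2% and 25.0% in the second, and 22.8% and 20.7% in both. The list was chosen with earlier results of these data known, so its counts are not a separate check on the members. Among regulators of the early steps and their membrane proteins, 6 of 9 were higher in TubB than in mock and none lower. These included Trp53inp1, a p53 target that binds LC3, at 1.97 ± 0.20 (adjusted p = 2.63e-09), Trp53inp2 at 1.33 ± 0.13, Vmp1, an endoplasmic reticulum scramblase, at 0.79 ± 0.08, and Tbk1, the kinase that phosphorylates p62 and optineurin, at 1.15 ± 0.09 (adjusted p = 4.90e-12). Tbk1 had 75.6 and 84.5 CPM in mock, 181 and 175 in TubB, 81.5 and 86.0 in LPS_IFNg and 182 and 172 in LPS_IFNg_TubB. The TubB and LPS_IFNg_TubB libraries of Tbk1 were thus above the other 4.

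Of 11 organelle receptors, 5 were higher and 2 lower in TubB than in mock, where 26.3% and 24.9% of all genes were. In LPS_IFNg_TubB against LPS_IFNg, 6 were higher and 3 lower, against 26.2% and 25.0% of all genes. Bnip3, a mitochondrial receptor induced by hypoxia, had 22.1 and 33.6 CPM in mock, 368 and 236 in TubB, 19.4 and 30.7 in LPS_IFNg and 358 and 273 in LPS_IFNg_TubB. Its log2 fold changes of 3.43 ± 0.40 (adjusted p = 0.00219) and 3.65 ± 0.41 (adjusted p = 0.00201) were larger than those of any member. Its relative Bnip3l was higher by 1.21 ± 0.25 and 1.36 ± 0.25, and the ubiquitin-binding Tollip by 0.69 ± 0.09 and 0.66 ± 0.09. Phb2, an inner mitochondrial membrane receptor that has other mitochondrial roles, was lower by -0.69 ± 0.08 and -0.67 ± 0.08. Both comparisons thus held mitochondrial receptors with opposite directions.

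In the list of nutrient control, 10 of 22 genes were higher and 1 lower in TubB than in mock, and 9 and 1 in the second comparison. The shares over all genes were 26.3% and 24.9% in the first and 26.2% and 25.0% in the second. Ddit4, an inhibitor of mTORC1, was higher by 2.91 ± 0.27 (adjusted p = 2.24e-10), the stress-induced mTORC1 inhibitor Sesn2 by 1.52 ± 0.16 (adjusted p = 2.10e-07), Rragd by 1.02 ± 0.41 and Foxo3 by 0.84 ± 0.10. In the second comparison the values were 2.90 ± 0.28, 1.51 ± 0.17, 0.37 ± 0.44 (not called) and 0.73 ± 0.10. The lower gene was Sesn1, at -0.77 ± 0.29 (adjusted p = 0.0293) and -0.80 ± 0.30 (adjusted p = 0.0278). From the same list, Mtor, Rptor, Mlst8, Prkaa1, Prkab1, Prkag1, Tsc2 and Rheb were called in neither comparison. Of 13 genes for fusion with the lysosome, 8 were higher and 2 lower in TubB than in mock, and 7 and 1 in the second comparison. Among the higher were Snap29, a SNARE of that step, at 0.81 ± 0.12, Vps18 of the tethering complex at 0.68 ± 0.08, Plekhm1 at 0.41 ± 0.07 and Ykt6 at 0.39 ± 0.09. The 2 lower genes belong to the same complex as Vps18. Vps39 was lower in both comparisons, by -0.36 ± 0.10 and -0.29 ± 0.10. Vps16 was at -0.31 ± 0.11 and, not called, -0.17 ± 0.12. The autophagosomal SNARE gene Stx17 was not called, at -0.53 ± 0.24 and -0.18 ± 0.24.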

How the data were processed

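The authors deposited raw read counts per gene for 8 libraries and regularised log2 values (rlog) of the same counts. Reads were aligned with STAR 2.7.0, per the submitters' processing notes, and counted as paired reads over exons with featureCounts 2.0.1 on the NCBI annotation of GRCm38.p6, per the file headers. No option for strand or multi-mapped reads was given there, and the kit was non-directional per the labels' protocols, so antisense and overlapping genes cannot be separated. The deposited table also holds exon length in bases, per the file headers, used here for CPM per kb.

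Genes were tested with edgeR 4.0.16 (R 4.3.3) on the deposited counts, by the quasi-likelihood test with TMM scaling, filterByExpr (minimum count 10, minimum total 15) and robust estimation. All 8 libraries entered 1 fit by group, with 4 residual degrees of freedom. P-values were adjusted by Benjamini-Hochberg over all genes tested, and a call is an adjusted p under 0.05. The fit was also run on simulated counts with a small share of changed genes and independent replicates. That setting is unlike these data, so it does not bear on the calls given here. CPM values are scaled by TMM, errors are SD over 2 libraries or SE of a log2 fold change, and precision at low counts is limited by counting error. Values per library were given for up to 4 members per role called in both compound comparisons (2 where fewer were called), for members called against their role, and up to 4 called genes were named per list of other pathway genes. The members and lists were chosen with earlier results of these data known. Tools for the alternatives were DESeq2 1.42.0 and limma 3.58.1. The scaling by library totals was chosen after seeing the data. Stx17, Vps39, Vps16, Vamp8, the nutrient control genes called in neither comparison and members beyond the naming rule were named after their values were seen. Promoters are from RefSeq. No 2 replicates agreed within sampling noise.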

Additional observations from a re-analysis of the deposited data

How the results depend on the processing

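Depth limited genes with few counts, such as Wipi1 and Map1lc3a, which had large errors. Other tools were DESeq2, limma-voom and limma on rlog values. Other settings were RLE factors, library totals, a count filter of 1 CPM in 2 libraries or none, a fit to only the groups compared, the replicate block and leaving out each library. Where a library was left out, the lone library of its group was assumed to vary like the others. The number of members called stayed 0 in both stimulus comparisons and in the interaction under each alternative that was run, and the interaction was not run on the compared groups alone. Over single genes, TubB against mock gave 816 values that kept direction and call, 31 that lost a call, 5 that gained one and 15 of opposite sign. For LPS_IFNg_TubB against LPS_IFNg these numbers were 806, 36, 4 and 21. The causes were not tested.

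The deviations of same-numbered libraries from their group means correlated at -0.0520 to 0.150 over genes. The highest values were for TubB with LPS_IFNg_TubB (0.150) and mock with LPS_IFNg (0.0853). In these pairs of groups, same-numbered libraries had a chi-square of 1.93 to 2.34 per gene, below the 2.60 to 4.87 between replicates of a group. A replicate number may thus mark something shared in them, and what it marks was not tested. The replicate block assumes 1 shift common to all groups. With the replicate block, 19 members were higher and 1 lower in TubB than in mock, against 26.5% and 25.2% of all genes. In LPS_IFNg_TubB against LPS_IFNg, 21 were higher and 1 lower, against 26.5% and 25.4%.

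The number of members lower in TubB than in mock, 1 as reported, was 3 with library totals, 0 with DESeq2, 2 with limma on rlog values and 0 to 2 when a library was left out. Members lower in LPS_IFNg_TubB than in LPS_IFNg, again 1, came to 4 with library totals, 0 with DESeq2, 2 with limma on rlog values and 0 to 1 with a library left out. Members higher there numbered 13 with library totals and 14 to 21 with a library left out, and those higher in TubB than in mock 15 to 19. Other pathway genes lower in TubB than in mock, 5 as reported, were 12 with library totals, 2 with DESeq2 and 3 to 6 with a library left out (3 without either mock library or TubB replicate 1). In LPS_IFNg_TubB against LPS_IFNg they were 11, 2 and 3 to 5 (3 without LPS_IFNg replicate 2 or LPS_IFNg_TubB replicate 1). The share of all genes called lower in TubB than in mock was 24.9% as reported. It was 37.9% with library totals, 19.3% with DESeq2 and 24.5% with limma on rlog values. For LPS_IFNg_TubB against LPS_IFNg these shares were 25.0%, 37.3%, 20.4% and 25.6%, and 18.0% were called higher with library totals. The median of the members in TubB against mock, 0.47, was 0.25 with library totals, 0.30 with limma on rlog values, which are shrunken, and 0.35 to 0.54 with a library left out. In LPS_IFNg_TubB against LPS_IFNg the median of 0.45 was 0.24, 0.25 and 0.40 to 0.46. Leaving out a library gave medians of -0.050 to 0.092 in LPS_IFNg against mock, -0.074 to 0.11 in LPS_IFNg_TubB against TubB and -0.076 to 0.077 in the interaction.

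Changes of sign fell on members called in neither or 1 comparison. With library totals, the values in TubB against mock were -0.14 for Ulk2, -0.056 for Becn1, -0.024 for Pik3r4, -0.21 for Atg2b, -0.070 for Atg4c, -0.17 for Atg5 and -0.10 for Atg7. In LPS_IFNg_TubB against LPS_IFNg they were -0.21 for Ulk2, -0.072 for Becn1, -0.071 for Atg3 and -0.080 for Atg4b. Values near 0 turned in LPS_IFNg_TubB against LPS_IFNg for Ulk2 with the 1 CPM filter (-0.000445), for Pik3c3 with RLE factors (0.00126) and limma-voom (0.00417), and for Atg2b with RLE factors (0.00472), DESeq2 (0.00540) and rlog values (0.000186). Atg2b in TubB against mock turned with no count filter (-0.00553). With a library left out, values in TubB against mock ran from -0.012 to 0.17 for Ulk2, -0.17 to 0.066 for Pik3c3, -0.0077 to 0.020 for Atg2b, -0.016 to 0.33 for Atg4c, -0.076 to 0.14 for Atg5 and -0.86 to 0.16 for Atg10. In LPS_IFNg_TubB against LPS_IFNg they ran from -0.019 to 0.032 for Ulk2, -0.16 to 0.16 for Pik3c3, -0.10 to 0.098 for Atg2b and -0.19 to 0.010 for Atg5.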
